A study of Mus musculus with 24 samples.

Results

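The genes of coenzyme Q synthesis were followed in inguinal subcutaneous fat of mice with an activated AMP-activated protein kinase (AMPK). They are Pdss1, Pdss2, Coq2, Coq3, Coq4, Coq5, Coq6, Coq7, Coq9 and Adck3, the older symbol of Coq8a, and were found by symbol in the count tables and joined by Ensembl identifier, giving 10 genes of 39487. Each was present once in both tables. They were chosen by function, with results of these data already in view, and no measured value enters the rule that picks them, so their counts and medians describe the pathway and do not test it.

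Messenger RNA was sequenced from C57BL/6J mice. All of them carried an AMPK γ1 transgene, encoding the nucleotide-binding subunit of this sensor of cellular energy. D316A-Tg mice carried a gain-of-function form of the subunit and WT-Tg mice the wild-type form, so both genotypes were transgenic. Mice of both genotypes were fed a high-fat diet (HFD, 45% fat) and sampled at 24 weeks of age, or fed chow and sampled at 16 weeks. Each of the 4 groups held 6 libraries, numbered 7 to 12 in D316A-Tg and 1 to 6 in WT-Tg on each diet. The labels used here do not name the promoter of the transgene, the founder lines or the sex of the mice. Nor do they state that each library is another mouse, so the p-values reflect only sample-to-sample spread, possibly technical in part.

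Coenzyme Q, or ubiquinone, is a lipid of the inner mitochondrial membrane with a redox-active ring and a long isoprenoid tail. It carries electrons from complexes I and II, and from dehydrogenases of fatty acid, glycerol phosphate, proline, choline and sulfide metabolism, to complex III. Pdss1 and Pdss2 build the tail from mevalonate pathway units, Coq2 joins the tail to the ring precursor hydroxybenzoate, and a complex of Coq proteins on the inner membrane then hydroxylates and methylates the ring. Fat cells that burn fuel for heat are rich in mitochondria and in this carrier.

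Library totals ran from 16373731 to 20774533 counts in D316A-Tg and from 19063635 to 22748132 in WT-Tg on HFD, and from 14756322 to 17766546 in D316A-Tg and from 13254536 to 17685717 in WT-Tg on chow. Adipoq, the fat cell hormone adiponectin, was at 1167 to 4854 CPM (read counts scaled to library size) in every library. Markers of other cells varied within groups. The score of 7 B lymphocyte genes (mean log2 CPM) was over 3 in 4 of 6 D316A-Tg and 1 of 6 WT-Tg libraries on HFD, and in 2 of 6 D316A-Tg and 4 of 6 WT-Tg libraries on chow. These libraries are called lymphocyte-rich. The score of 12 skeletal muscle genes ran from 3.54 to 9.70 in D316A-Tg and from 0.07 to 3.68 in WT-Tg on HFD, and from -0.69 to 4.92 in D316A-Tg and from -0.50 to 8.54 in WT-Tg on chow. Endothelial and macrophage markers were lower in part in D316A-Tg fat. On chow 1 of 5 endothelial genes was called lower (Vwf, -1.31 in log2 fold change) and 0 of 4 macrophage genes in edgeR, with 2 of these at an unadjusted p under 0.05. On HFD 2 of 5 endothelial genes (Vwf -0.92, Kdr -0.51) and 1 of 4 macrophage genes (Mrc1 -1.32) were called lower. Of all genes tested, 3.25% were called lower on chow and 3.96% on HFD. The endothelial score ran from 5.41 to 6.42 in D316A-Tg and from 6.22 to 6.60 in WT-Tg on HFD, and from 5.13 to 5.90 in D316A-Tg and from 5.54 to 6.62 in WT-Tg on chow. The macrophage score ran from 4.63 to 6.07 in D316A-Tg and from 5.33 to 7.08 in WT-Tg on HFD, and from 4.02 to 5.23 in D316A-Tg and from 4.49 to 5.50 in WT-Tg on chow. The part of these cells in the results was not tested. In whole tissue, fewer cells of a type and less RNA per cell cannot be told apart.

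The D316A effect on Coq3, Coq7 and Pdss1 differed between the diets, and so between ages (below 0.05 in adjusted p, values further on). The sequences before their start sites are shown for that reason. Each is the 250 bases before the RefSeq start on GRCm38.p6, 5′ to 3′ on the strand of the gene, with capitals for any of 6 motifs searched on both strands. The Coq3 window is chr4:21879396-21879645 (plus strand), the Coq7 window chr7:118533357-118533606 (minus strand) and the Pdss1 window chr2:22895272-22895521 (plus strand). The Pdss1 window also holds exon sequence of A130006I12Rik, a pseudogene on the opposite strand.
Coq3: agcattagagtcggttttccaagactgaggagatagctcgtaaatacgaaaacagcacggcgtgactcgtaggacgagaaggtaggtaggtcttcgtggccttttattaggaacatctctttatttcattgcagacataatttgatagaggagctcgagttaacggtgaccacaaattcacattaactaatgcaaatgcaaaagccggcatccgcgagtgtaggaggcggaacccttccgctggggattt
Coq7: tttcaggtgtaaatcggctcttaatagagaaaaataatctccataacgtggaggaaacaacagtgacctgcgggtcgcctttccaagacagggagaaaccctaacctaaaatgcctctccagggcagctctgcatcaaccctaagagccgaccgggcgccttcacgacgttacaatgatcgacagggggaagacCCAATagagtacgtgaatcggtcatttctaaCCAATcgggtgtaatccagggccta
Pdss1: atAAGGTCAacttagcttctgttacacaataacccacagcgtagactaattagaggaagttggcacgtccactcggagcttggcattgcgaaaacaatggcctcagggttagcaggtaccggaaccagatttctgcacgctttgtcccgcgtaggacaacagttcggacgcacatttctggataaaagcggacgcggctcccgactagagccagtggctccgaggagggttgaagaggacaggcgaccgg

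The capitals in Coq7 are CCAAT, the letters of the NF-Y box, beginning at -56 and -25 from the start site. The capitals in Pdss1 are AAGGTCA, the letters of an ERR site, beginning at -248. The Coq3 window held none of the 6. Promoter windows of 300 bases (250 before the start and 50 after) were listed for 9 of the 10 genes, with 2 windows each for Adck3 and Coq3. A gene was counted if any of its windows matched, whereas shares over the genome are of single windows. CCAAT was in windows of 3 of these 9 (Adck3, Coq6 and Coq7) and in 37.4% of 32851 windows listed for the genome. CCGGAAG, the ETS letters, was in 3 of 9 (Coq6, Pdss1 and Pdss2) and 8.86% of all windows, and AAGGTCA in 1 of 9 (Pdss1) and 4.72%. CACGTG (E-box) was found in Coq4 and 7.15% of all windows, GCGCATGC (NRF1 site) in Coq2 and 2.71%, and AAGATGG (YY1 core) in Coq9 and 6.34%. No letters were found for more than 3 of the 9 genes, and a match is a run of letters, not a shown binding site.

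Positions are those of GENCODE on GRCm38. Pdss1 (ENSMUSG00000026784) is on chromosome 2, 22895522 to 22940266, and Pdss2 (ENSMUSG00000038240) on chromosome 10, 43221486 to 43464882, both on the plus strand. Coq2 (ENSMUSG00000029319) is on chromosome 5, 100654723 to 100675140, minus strand, and Coq5 (ENSMUSG00000041733) on the same chromosome, 115279666 to 115296972, plus strand. Coq4 (ENSMUSG00000026798) is on chromosome 2, 29787493 to 29797935, and Coq6 (ENSMUSG00000021235) on chromosome 12, 84361657 to 84373796, both on the plus strand. Coordinates of the others stand with their values.

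Transcript levels spanned a wide range within the pathway. Per kb of exon, Coq9, a lipid-binding partner of the hydroxylase Coq7, was highest in every group, at 53.7 ± 15.7 CPM per kb in D316A-Tg and 45.7 ± 8.58 in WT-Tg on HFD, and 71.2 ± 21.4 in D316A-Tg and 35.8 ± 13 in WT-Tg on chow (SD, n = 6). Coq2, the prenyltransferase, was the second in every group. In chow D316A-Tg libraries Coq2 at 29.5 ± 5.17, Coq5 at 28.4 ± 8.79 and Adck3 at 27.2 ± 6.10 CPM per kb lay within their spread of one another, as did Coq6 at 17 ± 4.34 and Coq3 at 16.6 ± 5.31. Coq7 followed at 9.21 ± 3.12, then Coq4 at 5.00 ± 1.70, Pdss2 at 3.10 ± 0.827 and Pdss1 at 2.18 ± 0.956 CPM per kb. In HFD WT-Tg libraries Adck3 stood lower in the order, at 6.71 ± 0.533 CPM per kb, below Coq3 at 11.8 ± 1.25 and Coq6 at 8.47 ± 0.844. The subunits of the tail synthase, Pdss1 and Pdss2, were the lowest in every group.

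**Figure D1:**
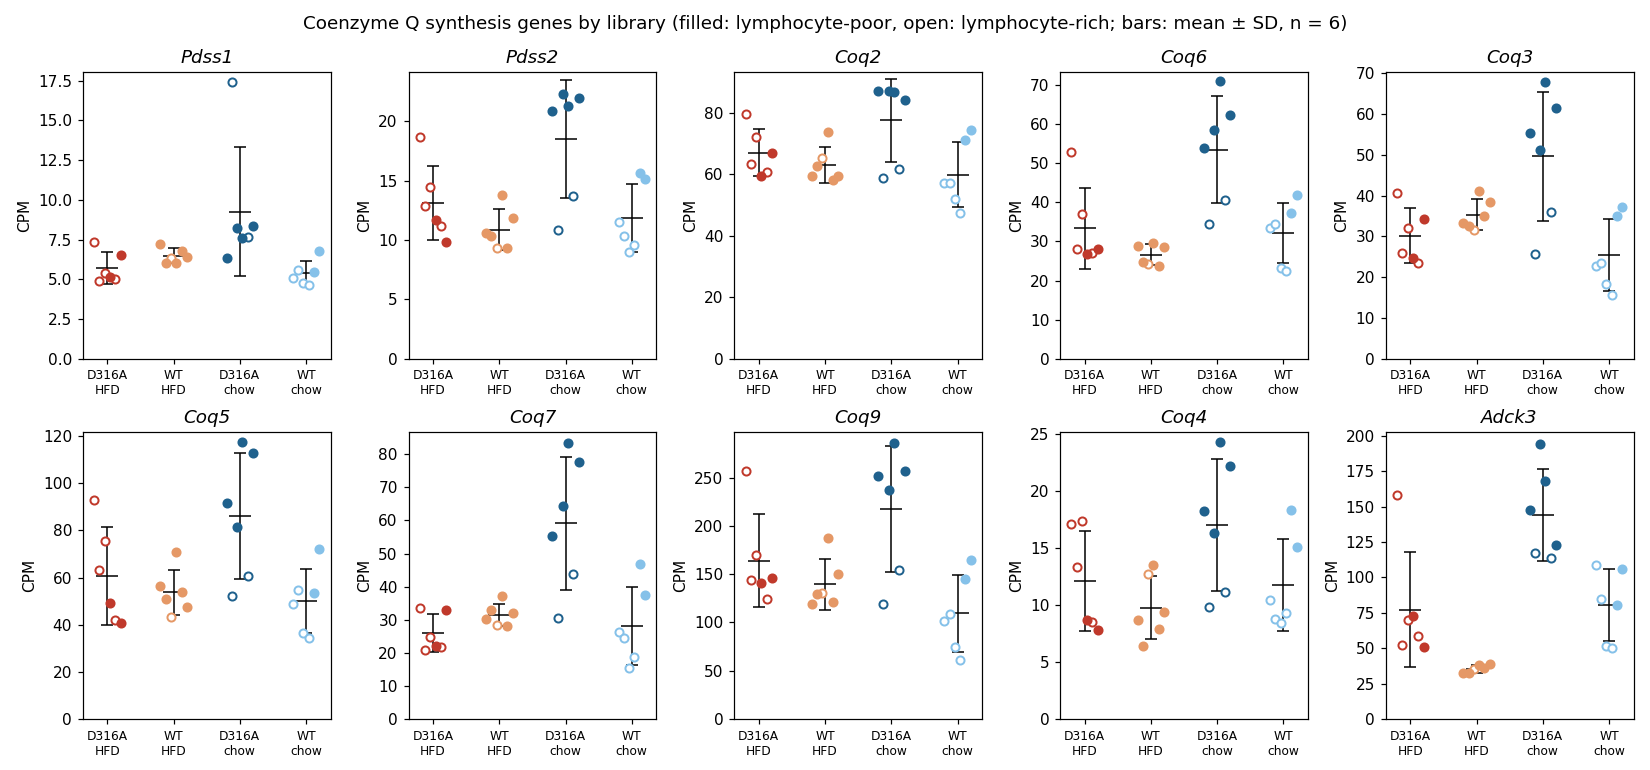
Levels of the 10 genes in CPM (vertical axes, linear) in each library, by group, with mean and SD (bars, n = 6); open points are lymphocyte-rich libraries. Every panel has its highest group mean in chow D316A-Tg libraries, and Adck3 separates both genotypes on HFD (50.8 CPM or more in D316A-Tg, 39.1 or less in WT-Tg).

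On chow, the comparison of genotypes asks what the gain-of-function subunit does to these transcripts in fat of chow-fed mice. All 10 genes had positive log2 fold changes, between 0.30 and 1.00, and 5 of 10 were called higher in D316A-Tg fat, where 5.3% of 15249 genes were called higher (8.54% in either direction). The genes called were Coq3, Coq6, Coq7, Coq9 and Adck3. The median log2 fold change of the 10 was 0.72, against -0.07 over all genes tested. Calls are at a Benjamini-Hochberg adjusted p under 0.05 over all genes in edgeR's quasi-likelihood test.

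The tail and transfer genes did not pass on chow. Pdss2 was at 10.8 (lowest), 21.1 (median) and 22.3 CPM (highest) in D316A-Tg libraries, against 9.00, 10.9 and 15.6 in WT-Tg libraries, or 0.57 in log2 fold change (SE 0.18, adjusted p = 0.0709 in edgeR). Coq2 was at 58.6, 85.4 and 87.1 CPM in D316A-Tg, against 47.5, 57.1 and 74.3 in WT-Tg (log2 fold change 0.30, SE 0.12, adjusted p = 0.117 in edgeR). The groups overlapped for both genes, through the lymphocyte-rich libraries D316A-Tg 8 and 11, which were the lowest of their group. Pdss1 was at 6.32, 7.94 and 17.4 CPM in D316A-Tg, against 4.64, 5.27 and 6.81 in WT-Tg (log2 fold change 0.73, SE 0.25, adjusted p = 0.0849 in edgeR). Its highest value, in D316A-Tg 8, was over the next of that group at 8.35 CPM, although the same library was the lowest of the group for 8 of the 10 genes. Without D316A-Tg 8 the log2 fold change of Pdss1 was 0.41 and passed (adjusted p = 0.0461 in edgeR; 0.0217 to 0.337 over the alternatives other than leaving out a library). Without D316A-Tg 8, 3360 of all genes were called, against 1303 with every library. Exons of other genes overlap 9.44% of the exon length of Pdss1 (Abi1 and A130006I12Rik), and the use of strand in counting is not stated in the labels.

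Of the 4 ring-modifying enzymes, 3 were called on chow. Coq7, the hydroxylase of the penultimate step (ENSMUSG00000030652, mm10 chromosome 7, 118509659 to 118533356, minus strand), was at 30.6, 59.9 and 83.3 CPM in D316A-Tg, against 15.5, 25.3 and 46.8 in WT-Tg. Its mean was 59.2 ± 20.1 CPM in D316A-Tg and 28.2 ± 11.8 in WT-Tg (SD, n = 6 each), or 1.00 in log2 fold change (SE 0.28, adjusted p = 0.0466 in edgeR). Coq3, the O-methyltransferase of the ring (ENSMUSG00000028247, chromosome 4, 21879673 to 21912162, plus strand), was at 25.6, 53.3 and 67.8 CPM in D316A-Tg, against 15.6, 23 and 37.2 in WT-Tg, or 0.90 in log2 fold change (SE 0.24, adjusted p = 0.0436 in edgeR). For both genes 4 of 6 D316A-Tg libraries, the lymphocyte-poor ones, lay above every WT-Tg library. Coq6, a ring hydroxylase fed by ferredoxin, rose as well, to 53.4 ± 13.7 CPM in D316A-Tg, against 32.1 ± 7.71 in WT-Tg (log2 fold change 0.66, SE 0.18, adjusted p = 0.0443 in edgeR). Coq5, the C-methyltransferase, averaged 86.0 ± 26.7 CPM in D316A-Tg and 50.0 ± 13.7 in WT-Tg, and its adjusted p of 0.0551 missed the threshold (edgeR).

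Of the accessory genes, Coq9 (ENSMUSG00000031782, chromosome 8, 94838321 to 94854895, plus strand) was at 119, 244 and 286 CPM in D316A-Tg, against 61.5, 105 and 164 in WT-Tg on chow. The log2 fold change was 0.92 (SE 0.25, adjusted p = 0.0435 in edgeR). Adck3, an atypical kinase-like ATPase needed for the Coq complex (ENSMUSG00000026489, chromosome 1, 180165238 to 180199602, minus strand), was at 114, 135 and 194 CPM in D316A-Tg, against 50.1, 82.8 and 109 in WT-Tg, or 0.77 in log2 fold change (SE 0.21, adjusted p = 0.0436 in edgeR). The lowest D316A-Tg library (114 CPM) and the highest WT-Tg library (109 CPM) were close, and when the chow table was scaled on its own the groups overlapped. Coq4, a further member of the complex, averaged 17 ± 5.79 CPM in D316A-Tg and 11.7 ± 4.04 in WT-Tg and was not called (adjusted p = 0.215 in edgeR), with 27.1% of its exon length shared with Trub2 on the other strand.

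Lymphocyte content moved with these chow levels. The mean log2 CPM of the 10 genes was 5.10 and 5.22 in the lymphocyte-rich D316A-Tg libraries and 4.38 to 4.85 in the WT-Tg ones, against 5.68 to 5.95 in lymphocyte-poor D316A-Tg and 5.20 and 5.30 in lymphocyte-poor WT-Tg libraries. D316A-Tg libraries were thus higher than WT-Tg ones within each kind, and lymphocyte-rich ones lower within each genotype. The muscle scores of the lymphocyte-poor libraries were -0.24 to 3.80 in D316A-Tg and 6.41 and 8.54 in WT-Tg. Genotype and muscle content cannot be told apart among these libraries. The B lymphocyte score ran from -1.70 to 6.99 in D316A-Tg and from -1.30 to 7.36 in WT-Tg. The score of 8 mature adipocyte genes was 9.47 and 10.03 in the lymphocyte-rich D316A-Tg libraries and 9.32 to 9.94 in the WT-Tg ones, against 10.88 to 11.32 in lymphocyte-poor D316A-Tg and 10.89 to 10.98 in lymphocyte-poor WT-Tg libraries. Among the lymphocyte-poor libraries alone, 4 in D316A-Tg and 2 in WT-Tg, 6 of the 10 genes were called higher (Coq3 at a log2 fold change of 0.69, Coq7 at 0.71), where 7.59% of all genes tested in that fit were. Among the lymphocyte-rich ones, 2 and 4, the 10 log2 fold changes were again positive (0.16 to 1.32) and 0 passed in edgeR, with 4 at an unadjusted p under 0.05, where 0.624% of all genes were called higher. With lymphocyte-rich status as a term in the fit, 9 of 10 passed, at log2 fold changes of 0.18 to 0.80, where 13.7% of all genes were called higher and 28.9% in either direction. Brown and beige adipocyte scores were 5.23 to 6.35 in D316A-Tg and 2.56 to 5.31 in WT-Tg, and their part in the result was not tested. With every library, 3 of 8 genes of that list were called higher, against 5.3% of all genes. Of the 11 muscle markers tested, 0 were called on chow in edgeR, with 9 at an unadjusted p under 0.05 (median log2 fold change -4.03). With the muscle score in the model the 10 log2 fold changes were 0.33 to 1.19, 10 of 10 had an unadjusted p under 0.05 and 0 passed (adjusted p = 0.0579 to 0.137 in edgeR).

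Single libraries decided how many of the genes were called on chow. With 1 library left out, 0 to 8 of the 10 were called, and 140 to 3360 of all genes. The count of the 10 was 0 without WT-Tg 2, 3 or 4 or D316A-Tg 7, 9, 10 or 12. It was 1 without WT-Tg 1, 3 without WT-Tg 5, and 6 without WT-Tg 6 or D316A-Tg 11. It was 8 without D316A-Tg 8, the fit with 3360 calls over all genes. Every log2 fold change kept its sign. DESeq2 called 8 of the 10 (12.1% of all genes higher), and edgeR without the filter on low counts called 0 (1.4% of all genes higher), with 9 at an unadjusted p under 0.05.

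**Figure D2:**
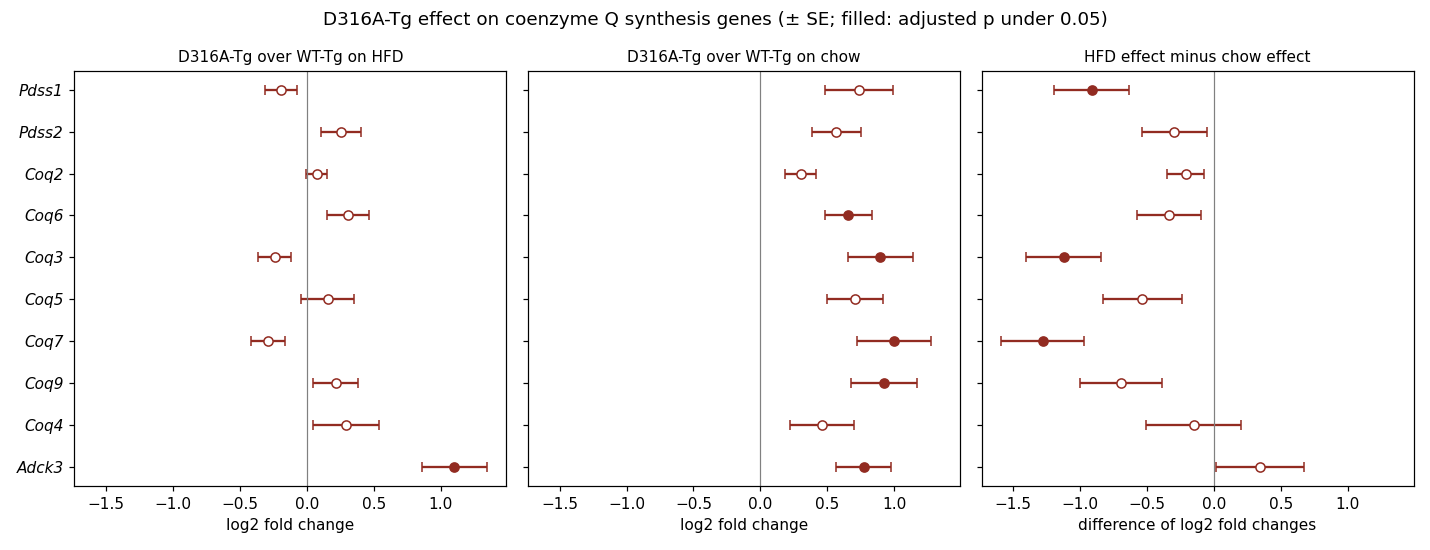
Log2 fold changes of D316A-Tg over WT-Tg (horizontal axes, ± SE) on HFD and on chow, and the HFD effect minus the chow effect; filled points passed an adjusted p of 0.05. All 10 points lie right of 0 on chow, Adck3 alone is filled on HFD, and Coq3, Coq7 and Pdss1 are filled in the difference.

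On HFD, Adck3 was the only gene of the 10 called, where 4.51% of 14649 genes were called higher, 3.96% lower and 8.47% in either direction. It was at 50.8, 64.6 and 158 CPM in D316A-Tg libraries, against 32.3, 35.6 and 39.1 in WT-Tg libraries, and the groups did not overlap, as for 1.54% of genes tested in this direction. The mean was 77.2 ± 40.8 CPM in D316A-Tg and 35.5 ± 2.82 in WT-Tg (SD, n = 6 each), or 1.10 in log2 fold change (SE 0.24, adjusted p = 0.0247 in edgeR). The spread was wide in D316A-Tg, where library 7 stood at 158 CPM and the next at 72.6, and narrow in WT-Tg. Without D316A-Tg 7 the log2 fold change was 0.78 (adjusted p = 0.0146), and without WT-Tg 1, 4, 5 or 6 the call was lost (highest adjusted p 0.0557).

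The remaining 9 genes had log2 fold changes between -0.29 and 0.31 on HFD, 6 positive and 3 negative, and none passed in edgeR or in DESeq2. Coq7 was at 21, 23.5 and 33.5 CPM in D316A-Tg, against 28.2, 31.1 and 37.1 in WT-Tg (log2 fold change -0.29, SE 0.13, adjusted p = 0.148 in edgeR, unadjusted 0.0421). Coq3 was at 23.5, 29.0 and 40.8 CPM in D316A-Tg, against 31.6, 34.1 and 41.1 in WT-Tg (log2 fold change -0.24, SE 0.13, adjusted p = 0.209 in edgeR). For Coq7 4 of 6 D316A-Tg libraries lay below every WT-Tg library, and for Coq3 3 of 6. Without D316A-Tg 12, Coq7 was called lower (log2 fold change -0.37, adjusted p = 0.0405 in edgeR), where 3919 of all genes were called. Pdss1 was at 4.88, 5.28 and 7.34 CPM in D316A-Tg, against 6.01, 6.39 and 7.25 in WT-Tg (-0.19 in log2 fold change, adjusted p = 0.287 in edgeR). Coq9 was at 124, 145 and 257 CPM in D316A-Tg, against 119, 130 and 188 in WT-Tg, with overlapping groups (log2 fold change 0.22, adjusted p = 0.382 in edgeR). Without D316A-Tg 7 its log2 fold change was 0.06. D316A-Tg 7 was the highest of its group for 9 of the 10 genes. The median log2 fold change of the 10 was 0.19, against 0.01 over all genes.

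Skeletal muscle transcripts moved with genotype on HFD. All 12 muscle markers were called higher in D316A-Tg, where 4.51% of all genes were. Among them was skeletal actin Acta1, at 89.7 to 3646 CPM in D316A-Tg and 8.63 to 63.9 in WT-Tg, and none was at 0. D316A-Tg 7, with the highest Adck3, also had the highest muscle score of the 24 libraries, 9.70, and the highest brown and beige adipocyte score, 6.80 (next in its group 4.55). The muscle scores of the genotypes met only at D316A-Tg 12 (3.54, Adck3 at 50.8 CPM) and WT-Tg 5 (3.68, Adck3 at 36.0 CPM). With 1 library each, this cannot separate genotype from muscle content. With the score in the model Adck3 had a log2 fold change of 0.10 (adjusted p = 0.950 in edgeR). In that fit 0 of 14649 genes passed and 930 had an unadjusted p under 0.05. Over the alternatives other than leaving out a library, in edgeR or DESeq2, the adjusted p of Adck3 ran from 0.000396 to 0.950. A term for lymphocyte-rich libraries left Adck3 at 0.96 (adjusted p = 0.123), and without those libraries it was at 0.79 (adjusted p = 0.214), both in edgeR. Genotype and muscle content cannot be told apart for Adck3 on HFD.

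**Figure D3:**
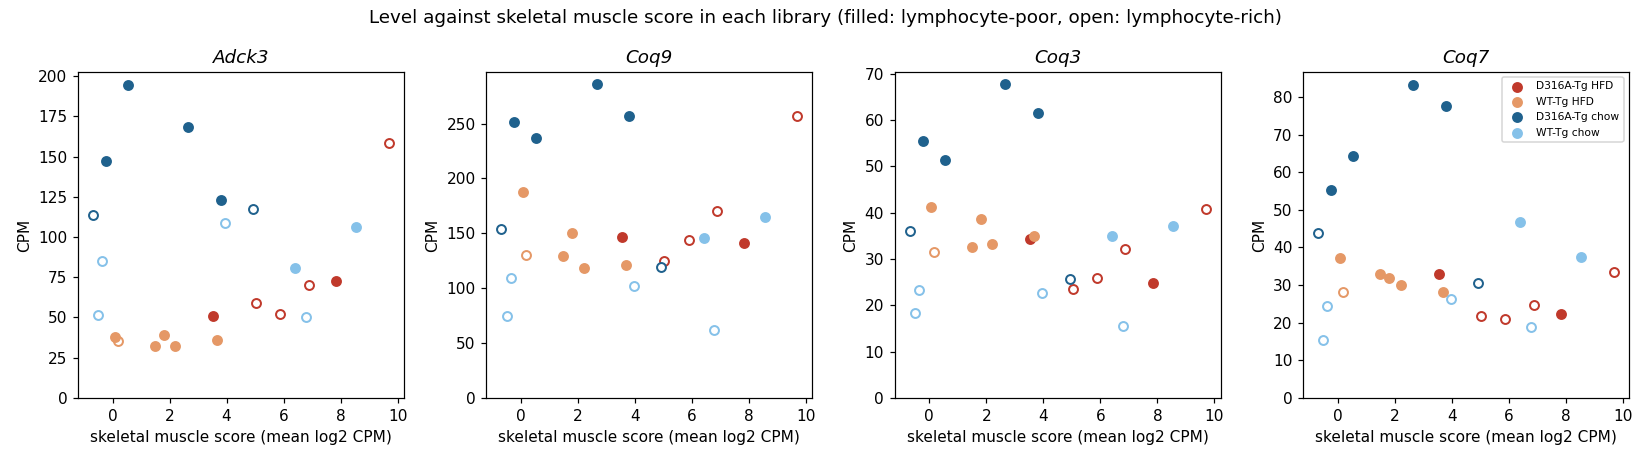
Levels of Adck3, Coq9, Coq3 and Coq7 in CPM (vertical) against the skeletal muscle score of the library (horizontal, mean log2 CPM of 12 genes), coloured by group, open points lymphocyte-rich. Among HFD libraries, the highest Adck3 and Coq9 values (158 and 257 CPM) belong to the library with the highest score, 9.70. Chow D316A-Tg libraries have scores of 4.92 or less and Adck3 at up to 194 CPM, and differ from HFD libraries in diet and age as well.

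The difference between the diets in the D316A effect was tested as an interaction term over all 24 libraries. Age, table and base-calling software changed with diet, and their part in this difference was not tested. The difference was called, and negative, for 3 of the 10 genes, where 6.86% of 16072 genes were called lower and 12.9% in either direction. Coq7 had a difference of -1.28 in log2 fold change (HFD effect minus chow effect, SE 0.31, adjusted p = 0.0117 in edgeR), Coq3 one of -1.12 (SE 0.28, adjusted p = 0.0131 in edgeR) and Pdss1 one of -0.91 (SE 0.28, adjusted p = 0.0361 in edgeR). These are the genes whose upstream sequences are printed above, and they share no motif of those searched. Of the other genes 6 were negative and 1 positive, with Coq9 at -0.69 (adjusted p = 0.128) and Adck3 at 0.34 (adjusted p = 0.473) in edgeR. The median of the 10 was -0.44, against 0.07 over all genes tested. The D316A effect on Adck3 was positive on both diets and was not shown to differ between them.

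Coq3 and Coq7 kept their interaction calls in 24 of 24 fits that left out a library, and Pdss1 in 14 of 24. Without the lymphocyte-rich libraries the difference was -0.99 for Coq7, -1.03 for Coq3 and -0.50 for Pdss1 (adjusted p = 0.0382, 0.0116 and 0.222 in edgeR). With a term for those libraries it was -0.84 for Coq7 and -0.73 for Coq3, and these missed the threshold (adjusted p = 0.0566 and 0.0820; ranges over all such alternatives 0.00130 to 0.0566 for Coq7 and 0.00177 to 0.0820 for Coq3). Pdss1 passed in that fit, at -1.04 (adjusted p = 0.0343; 0.0109 to 0.222 over such alternatives). Without D316A-Tg 8 on chow, the library with the high Pdss1 value, the difference of Pdss1 was -0.59 (adjusted p = 0.0133 in edgeR). That fit called 4304 of all genes, against 2080 with every library. Adding the muscle score gave -1.63 for Coq7 and -1.39 for Coq3 and -1.26 for Pdss1, of which Coq7 and Pdss1 passed (adjusted p = 0.0475 for Coq7, 0.0515 for Coq3 and 0.0481 for Pdss1 in edgeR).

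Between HFD and chow the mice also differed in age, and the libraries in their table and base-calling software, so diet, age and these steps cannot be told apart. In D316A-Tg fat all 10 genes had negative log2 fold changes (median -0.62, against -0.03 over all genes), and 5 were called lower, where 16.7% of 14752 genes were called lower, 14.1% higher and 30.8% in either direction. Coq7 fell most, to 26 ± 5.71 CPM on HFD, against 59.2 ± 20.1 on chow (log2 fold change -1.21, SE 0.22, adjusted p = 0.00142 in edgeR). Adck3 fell by 0.94, Coq3 by 0.74, Pdss1 by 0.74 and Coq6 by 0.71 on the log2 scale (adjusted p = 0.0182, 0.0215, 0.0398 and 0.0190 in edgeR). Among lymphocyte-poor libraries, 2 on HFD and 4 on chow, 9 of 10 were called lower, where 24.5% of all genes were lower and 47.3% called in either direction. Pdss1 was not called there (log2 fold change -0.42, adjusted p = 0.143; 0.0154 to 0.143 over the alternatives other than leaving out a library). Muscle markers ran the other way, with 11 of 12 higher on HFD. With 1 library left out 3 to 9 of the 10 were called, and 3598 to 5129 of all genes. The 10 had 3 calls without D316A-Tg 8, 10 or 11 on HFD, and 9 without D316A-Tg 8 on chow (5129 of all genes).

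In WT-Tg fat the same comparison called 1 of 10 genes, Adck3, where 33.3% of 15018 genes were called lower, 28.7% higher and 62% in either direction. Adck3 was at 32.3, 35.6 and 39.1 CPM on HFD, against 50.1, 82.8 and 109 on chow, with no overlap (as for 15.8% of genes in this direction), or -1.23 in log2 fold change (SE 0.19, adjusted p = 0.000126 in edgeR). It held in 12 of 12 fits that left out a library. The other 9 genes lay between -0.33 and 0.43, with Coq3 at 0.43 (adjusted p = 0.0664) and Coq6 at -0.33 (adjusted p = 0.0653) in edgeR. All 11 muscle markers tested and 5 of 6 T lymphocyte markers were lower on HFD in WT-Tg. Only 2 chow WT-Tg libraries were lymphocyte-poor; against these, the 5 lymphocyte-poor HFD libraries had 5 of 10 genes lower (Adck3, Coq4, Coq6, Coq7 and Pdss2), where 25.4% of all genes were called lower and 51.3% in either direction. DESeq2 on all libraries called 3 (Adck3 and Coq6 lower, Coq3 higher), where it called 65.4% of all genes. The 2 diet comparisons share no libraries with each other, but each shares its libraries with the genotype comparisons.

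The rest of the pathway was described by lists of upstream, partner and downstream genes. On chow, complex III, which takes electrons from coenzyme Q, had 9 of 9 subunits called higher in D316A-Tg (median of their log2 fold changes 0.99). Of all genes tested on chow, 5.3% were called higher. Uqcrb was at 147 ± 35.8 CPM in D316A-Tg and 69.8 ± 22.1 in WT-Tg, and Uqcrq at 398 ± 125 in D316A-Tg and 165 ± 55.4 in WT-Tg (SD, n = 6 each). Of a list of coenzyme Q users and genes linked to them (Etfa, Etfb and Aifm1 included), 5 of 15 tested were called higher. Among them Gpd2, the mitochondrial glycerol phosphate dehydrogenase, was at 307 ± 90.1 CPM in D316A-Tg and 121 ± 44.6 in WT-Tg (log2 fold change 1.27, SE 0.25, adjusted p = 0.0204 in edgeR), and Etfdh, which carries electrons of fatty acid oxidation, had a log2 fold change of 1.03. Sdha, Sdhb and Sdhd, subunits of complex II, were the other called genes (1.05, 0.88 and 0.98). Of the mevalonate genes 1 of 9 was called higher (Idi1, which supplies the allylic isoprene unit, 1.09). Of the partner genes 1 of 8 was (Stard7, a lipid carrier of mitochondria, 0.35). Of the ring precursor genes 0 of 5 were called in edgeR, with 0 at an unadjusted p under 0.05. The lists were tested with every library only, and calls over all genes ran from 140 to 3360 with 1 left out. The muscle, lymphocyte and adipocyte values given above apply to these genes too, and their part was not tested.

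On HFD, 0 of 9 complex III subunits were called in edgeR and 0 had an unadjusted p under 0.05 (median log2 fold change 0.15; the lists were not tested with DESeq2). Of the mevalonate genes, which feed the tail, 4 of 9 were called lower in D316A-Tg, where 3.96% of all genes were. Fdps, which makes farnesyl diphosphate, was at 38.7 ± 14.3 CPM in D316A-Tg and 75.3 ± 9.51 in WT-Tg (log2 fold change -0.97, SE 0.19, adjusted p = 0.0198 in edgeR), and Mvd, Hmgcs1 and Pmvk had log2 fold changes of -0.83, -0.56 and -0.51. Where 4.51% of all genes were called higher, 4 of 15 in the list of coenzyme Q users and linked genes were. These were the proline, glycerol phosphate, choline and sulfide enzymes Prodh (1.5), Gpd2 (1.32), Chdh (1.04) and Sqor (0.50). Coq10b, a lipid-binding chaperone of coenzyme Q, was at 39.3 ± 7.81 CPM in D316A-Tg and 55.7 ± 5.41 in WT-Tg (-0.52 in log2 fold change, adjusted p = 0.0263 in edgeR), and of the ring precursor genes Got2 was higher (1.13) and Hpdl lower (-0.84). The muscle and lymphocyte values given above apply to these genes too, and their part was not tested.

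Where 6.86% of all genes were called lower and 12.9% in either direction, the D316A effect differed between diets for 5 of 9 mevalonate genes. The D316A effect on all 5 was lower on HFD than on chow, and the diets differed in age and table as well. Fdps had the largest difference of these (HFD effect minus chow effect -1.77, SE 0.32, adjusted p = 0.00335 in edgeR), followed by Idi1 at -1.45. The D316A effect was also lower on HFD for 4 of 9 complex III subunits (Uqcrq -1.17), 3 of 16 users and linked genes (Etfb -1.07, Etfdh -1.06, Sdhd -0.84) and Coq10b (-1.16). Of 6 ring precursor genes, Got2 was called the other way, with a D316A effect higher on HFD than on chow (1.56, adjusted p = 0.0105 in edgeR). Hpdl had a lower effect on HFD (-1.54). In WT-Tg fat, 5 of 9 mevalonate genes were higher on HFD than on chow. Of all genes 28.7% were called higher there and 62% in either direction. Among the 5 was Hmgcs1, at 1128 ± 122 CPM on HFD and 192 ± 97.6 on chow (log2 fold change 2.50, adjusted p = 1.72e-05 in edgeR). The synthesis genes apart from Adck3 did not pass in that comparison.

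**Figure D4:**
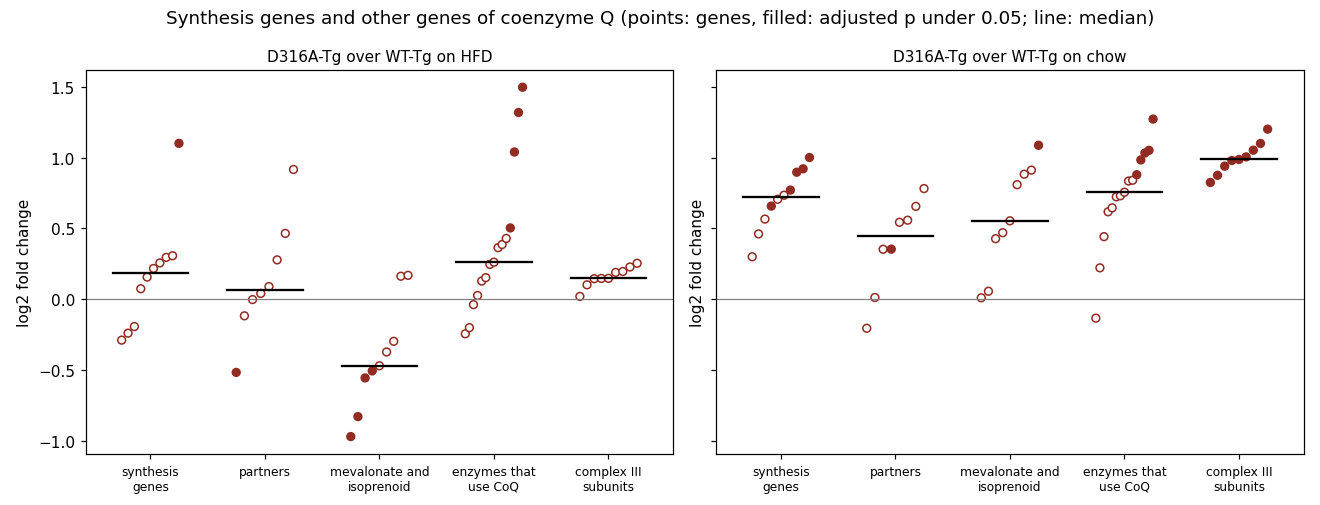
Log2 fold changes of D316A-Tg over WT-Tg (vertical axis) on HFD and on chow for the 10 synthesis genes and 4 further lists; each point is a gene, filled where the adjusted p was under 0.05, and lines are medians. On chow all 9 complex III subunits are filled with a median of 0.99, and on HFD 4 of 9 mevalonate genes are filled below 0.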

How the data were processed

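Messenger RNA libraries (TruSeq stranded kit, per the labels' protocols) were made from inguinal fat with the lymph node removed and an RNA integrity number of at least 7. The authors deposited raw read counts per gene in 1 table per diet, and the submitters' processing notes name STAR 2.4.1, DESeq2, FastQC and mm10. The labels and notes do not name the counting tool or its use of strand. The 38013 genes in both tables were joined by Ensembl identifier (39017 in the chow table, 38483 in the HFD table).

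Counts were tested with edgeR 4.0.16 (R 4.3.3; TMM scaling, filterByExpr, robust quasi-likelihood fit) and adjusted by the Benjamini-Hochberg method over all genes tested, with calls at 0.05. Genotype was fitted within each diet table, the difference of effects over all 24 libraries, and HFD against chow within genotype. SE is the size of the log2 fold change divided by the square root of F. Levels are CPM with 1 TMM scaling over the 24 libraries, scores are mean log2 CPM (prior count 2), and exon lengths come from GENCODE on GRCm38. The fits were tested on simulated data. Counts limit the precision of low genes: Pdss1, the lowest, was at 4.64 CPM or more.

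The genes and all lists were chosen with earlier results of these data known. The 10 genes were all named. Of each other list, genes were named from up to 4 called ones with the smallest adjusted p, not always all of these. For complex III on chow, Uqcrh was left out though its adjusted p was smaller than that of Uqcrq. Sdhb was named after its values were seen. Alternatives were RLE scaling, no filter, DESeq2 1.42.0, a muscle score, a lymphocyte term, leaving out lymphocyte-rich libraries or each library, and the replicate number as a block; keeping only lymphocyte-rich libraries was added after seeing the data.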

Additional observations from a re-analysis of the deposited data

Results flagged for a closer look

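In chow D316A-Tg fat, Pdss1 was at 17.4 CPM in library 8 and at 8.35 CPM in the next, a gap beyond Dixon's 95% value for 6 samples. In HFD D316A-Tg fat, library 7 stood apart in the same way for Adck3 (158 CPM, next 72.6) and for Coq9 (257 CPM, next 170). These are 3 of 40 groups of 6 tested, and chance marks about 1 in 20. D316A-Tg 7 on HFD had the highest skeletal muscle score (9.70) and the highest brown and beige adipocyte score (6.80) of the 24 libraries, with Ucp1 at 1050 CPM (next in its group 60.3), and the part of either in these values was not tested.

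The D316A effect differed between the diets, by the interaction test over all genes in edgeR, for Coq7 (HFD effect minus chow effect -1.28), Coq3 (-1.12) and Pdss1 (-0.91), with adjusted p = 0.0117, 0.0131 and 0.0361. Age, table and base-calling software changed with diet, and their part was not tested.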

How the results depend on the processing

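On chow, where 5 of the 10 genes and 1303 of all genes were called, DESeq2 called 8 and 2991, the fit with no filter 0 and 524, the muscle score 0 and 241, the lymphocyte term 9 and 4412, and the lymphocyte-rich libraries alone 0 and 148. Without the lymphocyte-rich libraries 2305 genes were called. Leaving out each library gave 0 to 8 of the 10 and 140 to 3360 genes. With no filter 9 of the 10 had an unadjusted p under 0.05 in edgeR.

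On HFD (1 and 1241), no filter called 795 genes and DESeq2 2794. The muscle score called 0 of the 10 and 0 genes, the lymphocyte term 0 and 79, and the fits without or with only lymphocyte-rich libraries 0 and 0 each in edgeR, with 1840 and 1213 genes at an unadjusted p under 0.05. With 1 library left out the counts were 0 to 2 and 326 to 3919. With the muscle score the sign turned for Coq5 (-0.46), Coq6 (-0.16), Coq9 (-0.10) and Pdss2 (-0.11). With the lymphocyte term it turned for Coq4 (-0.0504), and without lymphocyte-rich libraries for Coq4 (-0.16), Coq5 (-0.31) and Pdss2 (-0.0566).

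For the difference between diets (3 and 2080), the muscle score called 263 genes and the lymphocyte term 1 and 1037. Fits without 1 library gave 2 to 4 and 1368 to 4304. Adck3 turned to -0.10 with the muscle score.

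For HFD against chow in WT-Tg (1 and 9304), DESeq2 called 3 of the 10 and 9822 of all genes, the muscle score 2 and 9736, the lymphocyte term 3 and 8466, and the fit without lymphocyte-rich libraries 5 and 8075. Without 1 library they were 1 to 3 and 8613 to 10263. Signs turned with the lymphocyte term for Coq2 (-0.0738), Coq5 (-0.15) and Coq7 (-0.14), and without lymphocyte-rich libraries for Coq2 (-0.20), Coq5 (-0.15), Coq7 (-0.38) and Coq9 (-0.12). Leaving out each library gave -0.0353 to 0.10 for Coq2, -0.0343 to 0.18 for Coq5 and -0.0171 to 0.32 for Coq7. In D316A-Tg (5 and 4546), the muscle score called 1978 genes, and the fit without lymphocyte-rich libraries 9 of the 10 and 7112 genes. Omitting 1 library gave 3 to 9 and 3598 to 5129. The cause of these changes was not tested.

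Replicate numbers are shared between diets only and do not pair the samples: of 12 same-numbered pairs, 7 had a correlation of deviations over 0.1 and 2 correlated best with their own number. With the replicate block, 4 of the 10 genes and 4406 of all were called in D316A-Tg, and 1 and 8380 in WT-Tg.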
